A study of Drosophila melanogaster with 17 samples.

Results

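The chemoreceptor genes of Drosophila melanogaster were examined in ovaries of cuff mutant and wild-type females. Members were chosen by name alone, as the genes whose symbol starts with Or, Gr or Ir followed by a number and a letter. These are the odorant receptors, the gustatory receptors and the ionotropic receptors. The table of RNA polymerase II (Pol2) occupancy listed 179 of them among 13797 protein-coding genes, namely 59 Or, 60 Gr and 60 Ir genes. The RNA table listed 125 of them among 12505 genes, namely 33 Or, 39 Gr and 53 Ir genes. The remaining 54 members, 26 Or, 21 Gr and 7 Ir genes, have Pol2 values only.

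RNA-seq and Pol2 ChIP-seq were each made from 3 ovary samples labelled with the genotype cuff and 3 labelled wild type. Females were 2 to 4 days old, and about 30 of them were dissected for each biological replicate. The cuff gene encodes Cutoff, a nuclear protein of the germline that acts with Rhino in the transcription of piRNA clusters. The labels name neither the cuff allele nor the background of the wild type. The series holds 17 libraries in 6 groups, the others being 2 ChIP libraries of a Cuff-EGFP fusion and 3 inputs. The Cuff peaks were not used here, because their positions and the gene positions at hand belong to different genome builds.

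The deposited tables hold 1 merged value per genotype, called the mean below. It is taken to be a read count divided by a size factor and averaged over libraries, which the file headers do not state. No spread between replicates can therefore be given, and genes with a p of at most 0.05 in the authors' deposited table were counted as called. The means summed to 85598452 in the mutant and 89336038 in wild type for RNA, and to 50036639 in the mutant and 51692649 in wild type for Pol2. RNA of cuff itself averaged 1105 in the mutant and 951 in wild type (p = 0.9 in the authors' deposited table), so its level does not check the genotype label. The ovarian germline markers vas, nos and osk were all abundant in both genotypes, with mutant means of 30009 to 110687 and wild-type means of 27695 to 113027.

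Odorant and gustatory receptors are membrane proteins that form ligand-gated ion channels in sensory neurons, and most odorant receptors work together with the co-receptor Orco. Ionotropic receptors descend from the glutamate receptors of synapses, and Ir8a, Ir25a and Ir76b serve as their co-receptors. A sensory neuron typically transcribes only a small number of these genes. The ovary is not a chemosensory organ, and chemoreceptor genes are generally not counted among the genes of the germline or of follicle cells.

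Most chemoreceptor genes had little or no RNA in either genotype. Of the 179 members, 54 (30.2%) were absent from the RNA table, against 10.1% of the 13618 other genes of the Pol2 table. Counting as low also those with a mean under 10 in both genotypes, 143 members (79.9%) were absent or low, against 26.2% of the other genes. The share was 89.8% for Or genes, 85% for Gr genes and 65% for Ir genes. Among the 125 listed members, the median mean was 2.9 in the mutant and 1.3 in wild type, 23 were listed at 0 in the mutant and 28 in wild type. The smallest mean above 0 was 0.2 in both genotypes.

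**Figure D1:**
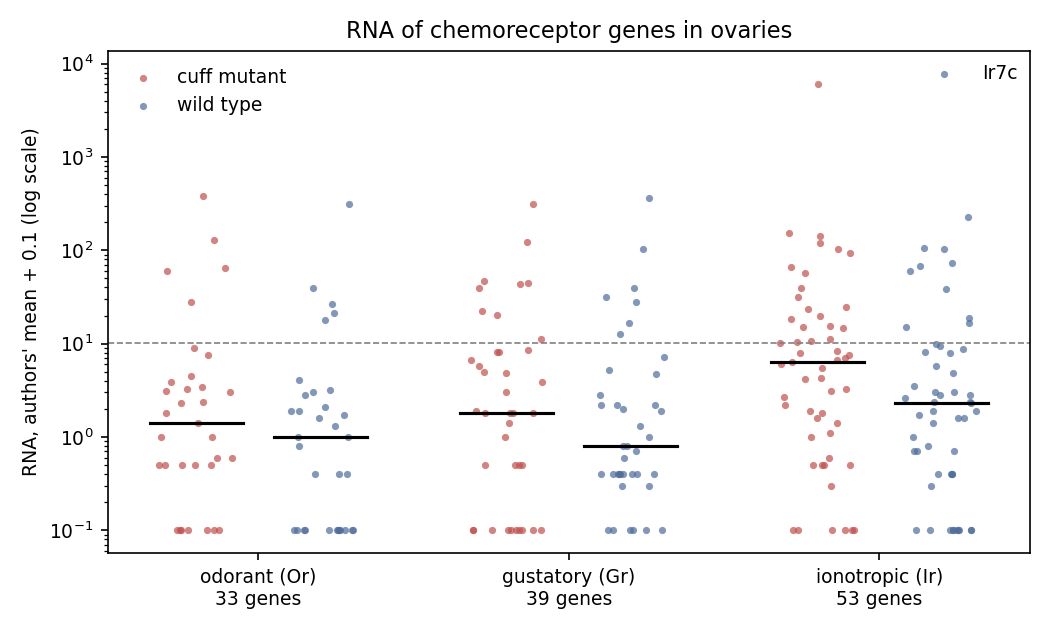
Each point is the mean RNA value of 1 chemoreceptor gene in cuff mutant (left) or wild-type (right) ovaries, plus 0.1 so that genes listed at 0 can be drawn on the log axis; bars are medians and the dashed line marks a mean of 10. Most points lie below the line in all 3 families, and Ir7c stands above all others in both genotypes.

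The label of silent genes did not hold for every member. There were 36 members that had a mean of at least 10 in 1 genotype or both, 14 reached 50, 10 reached 100 and 1 reached 1000. That gene was Ir7c, a receptor of taste neurons that takes part in the response to high salt, with 6078 in the mutant and 7831 in wild type (p = 0.8 in the authors' deposited table). Ir7c alone made up 70.8% of the members' summed RNA in the mutant and 80.5% in wild type, and per kb of gene its wild-type RNA was above that of 82.1% of the 12291 genes with a known length. All 125 members together held 0.01003% of the summed RNA in the mutant and 0.01089% in wild type.

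Ir7c lies beside dec-1, the follicle cell gene for an eggshell protein, on the X chromosome. RNA of dec-1 was 350050.5 in the mutant and 308206 in wild type, or 57745 per kb in the mutant and 50842 per kb in wild type. Ir7b, on the other side of dec-1, had only 104 in the mutant and 68.4 in wild type, and Ir7d, the next receptor gene beyond Ir7c, had 6.3 in the mutant and 0.6 in wild type. High RNA next to dec-1 was thus found for 1 of its flanking receptor genes and not to the same degree for the other. Whether reads of Ir7c extend from dec-1 was not tested, since the tables hold 1 number per gene.

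The other members with the most RNA per kb formed a mixed group. Or43b, a receptor for fruit esters, had 382 in the mutant and 316 in wild type, and Gr61a, a glucose receptor, had 316 in the mutant and 359 in wild type. Gr98b, needed for the taste of the plant toxin L-canavanine, had 124 in the mutant and 103 in wild type, and Ir62a, which takes part in the taste of calcium, had 142 in the mutant and 106 in wild type. The remaining ones were Ir47a, with 154 in the mutant and 72.7 in wild type, Or24a, a larval odorant receptor, with 130.4 in the mutant and 26.2 in wild type, Or71a, which detects yeast phenols, with 65.1 in the mutant and 39.3 in wild type, and Or2a, with 60.3 in the mutant and 21.1 in wild type. None of these was called, their p ranging between 0.3 and 1 in the authors' deposited table.

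Several of these genes share their place with another gene. In the Release 6 annotation Or43b overlaps lin19 (Cul1), the cullin of a ubiquitin ligase, with RNA of 35446 in the mutant and 39693 in wild type. Ir62a overlaps CG12090, Ir47a overlaps CG42732 and Or71a overlaps cp309 (Plp), a centrosomal protein gene with 11650 in the mutant and 7553 in wild type. Whether counting used strand or left out shared reads is something the sources used here do not give, so reads of such overlapping genes cannot be told apart. Gr61a, Gr98b, Or24a and Or2a overlap no other protein-coding gene.

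By p as printed, 1 chemoreceptor gene was called in RNA between the genotypes, and most were too low to be called. Of the 125 members 1 (0.8%) had a deposited p of 0.05 or less, against 9.24% of all genes in the RNA table; in the direction of higher in the mutant the background was 5.5%, and in the direction of lower, with 0 members, 3.73%. No gene of the whole table with a mean under 10 in both genotypes was called, 2309 genes including 89 of the members. Among genes that reached 10, 1 of 36 members (2.78%) was called, against 11.3% of 10196 genes. The gene was Or42a, a receptor for fruit esters, with 27.6 in the mutant and listed at 0 in wild type (p = 0.05 as printed in the authors' deposited table). The authors' own calls, which also require a 2-fold difference, did not include it, so its p before rounding was above the threshold. Its Pol2 mean was 388 in the mutant and 239.7 in wild type and was not called. The authors' own calls held 0 members in RNA, against 6.71% of all genes. A p of 0.5 or more was listed for 118 of the 125 members (94.4%), against 69.3% of all genes, and for 99.8% of all genes under 10 in both genotypes.

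Below the threshold the values leaned towards the mutant. The mutant mean was above the wild-type mean for 85 of 125 members (68%), against 51.1% of all genes, and below it for 40. The median change of the members was 0.49 on the log2(mean + 1) scale, mutant minus wild type, against 0.02 over all genes. Among genes with a mean under 10 in both genotypes it was likewise 0.49 for members, against 0.20 for other genes. The members' median depends on the pseudocount: over all 125 it was 0.87 with 0.1 and 0.14 with 10. Among genes with a mean under 10 in both genotypes the mutant was above for 55 of 89 members (61.8%), against 53.9% of 2220 other such genes. These are very low means and were not tested as a list.

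Among members whose mean was at or above the members' median, the log2 change in RNA was most positive in Or42a, Ir67b, Ir94h, Ir85a and Gr63a. Ir67b had 10.5 in the mutant and Ir94h 11.1, both being listed at 0 in wild type, and Ir85a had 10.1 in the mutant and 0.3 in wild type. Gr63a, a subunit of the carbon dioxide receptor, had 11.1 in the mutant and 0.3 in wild type, and its partner Gr21a had 22.5 in the mutant and 5.1 in wild type. The co-receptor Ir25a had 57.1 in the mutant and 9.3 in wild type, and Ir8a had 8.2 in the mutant and 1.6 in wild type, whereas Ir76b had 6.6 in the mutant and 8.1 in wild type. Of the receptors for temperature and humidity, Ir21a, which senses cooling, had 39.1 in the mutant and 8.7 in wild type, and Ir68a, which senses moist air, had 31.3 in the mutant and 4.7 in wild type, while their shared partner Ir93a had 3.0 in the mutant and 2.9 in wild type. Next to Ir7c the widest difference in the other direction, by amount, was that of Ir41a, a receptor for amines, with 94.0 in the mutant and 228 in wild type (p = 0.2 in the authors' deposited table). Gr59f and Ir75c were listed at 0 in the mutant, with 7.1 and 5.6 in wild type, Or22c had 0.4 in the mutant and 4.0 in wild type, and Or85f, which detects the scent of parasitoid wasps, had 3.2 in the mutant and 17.8 in wild type. Apart from Or42a, none of these genes had a p of 0.05 or less in RNA.

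Markers of other cell types also differed between the genotypes. The marker lists are short, and 9.24% of all genes were called in RNA. Of 6 neuronal markers found in the RNA table, the neuronal surface protein gene Appl and the syntaxin gene Syx1A were called higher in the mutant. In RNA 5 of 6 had the higher mean there, and the 6 summed to 9144 in the mutant and 3957 in wild type. Much of these sums was Syx1A, with 6606 in the mutant and 3049 in wild type. In Pol2 0 of the 6 were called, and 4 had the higher mean in the mutant. No neuronal marker was at 0, and the pan-neuronal gene elav had 1202 in the mutant and 584 in wild type (p = 0.09 in the authors' deposited table). The remaining neuronal markers were low and not called. Syt1 had 20.1 in the mutant and 24.2 in wild type, brp had 53.5 and 26, and para had 45.2 and 24.2. Of 5 muscle markers 4 were called higher in the mutant, with sums of 39911 in the mutant and 11219 in wild type. Of 4 germline markers 1 was called lower, bam, which drives germline differentiation, with 1654 in the mutant and 5057 in wild type, and of 5 follicle cell markers 2 yolk protein genes were called higher and 1 chorion gene lower. The fat body gene Lsp2 (1 of 2 markers called) had 3594 in the mutant and 1109 in wild type, and the gut gene Mal-A1 (1 of 2 called) had 1.6 in the mutant and 329.6 in wild type. The other fat body marker, Fbp1, had 7.5 in the mutant and 7.6 in wild type, and the other gut marker, Jon99Ci, had 2.8 and 1.1. In Pol2 neither Lsp2 (572 in the mutant and 611 in wild type) nor Mal-A1 (508.5 and 560) was called. The part of these cell types in the receptor values was not tested, and in whole ovaries a change in the number of cells of a type and in their RNA per cell cannot be told apart.

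Pol2 signal was measured for every member, with means of 19.5 to 14012 in the mutant and 7.2 to 8051 in wild type. Per kb of gene the median over members was 228 in the mutant and 150 in wild type. The 1332 other genes absent from the RNA table whose length is known had medians of 202 in the mutant and 141 in wild type, and the 12038 other genes found in both tables had 501 in the mutant and 496 in wild type. The members' Pol2 level per kb lay close to that of other genes without RNA. No value of the input libraries per gene was used here, so how much of this signal is ChIP background was not tested. Family medians per kb ran close together. They were 214, 242 and 232 in the mutant for Or, Gr and Ir genes, and 132, 158 and 163 in wild type.

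**Figure D2:**
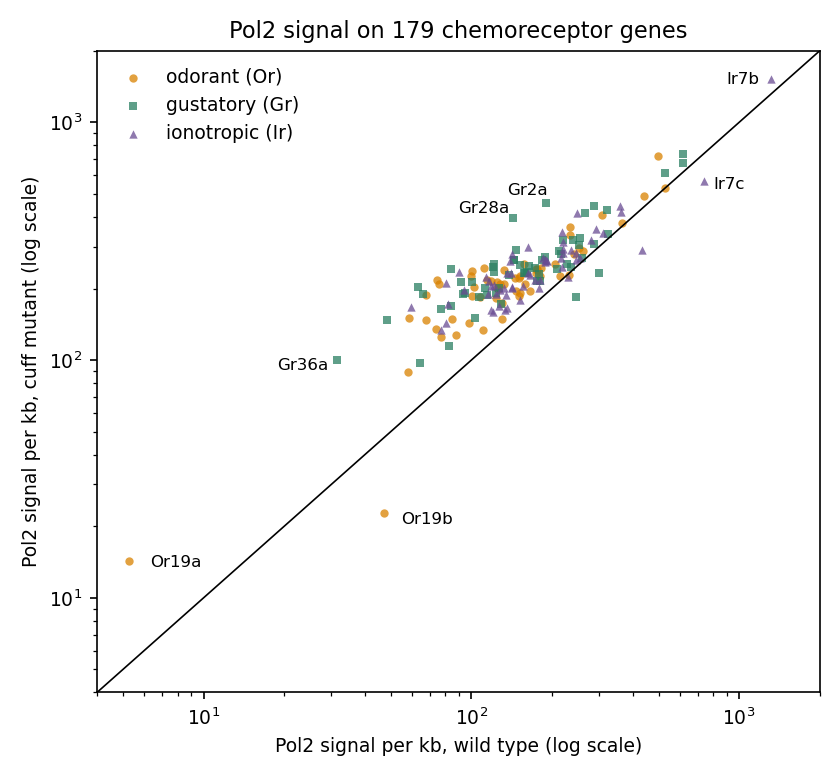
Each point is 1 of 179 chemoreceptor genes, by Pol2 signal per kb in cuff mutant ovaries (vertical) and wild-type ovaries (horizontal), both on log axes; the line marks equal values. Of the points, 171 lie above the line, and the distance from it is widest at low signal.

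Pol2 signal was higher in the mutant for nearly all chemoreceptor genes by value, and for few by test. The mutant mean was above the wild-type mean for 171 of 179 members (95.5%), namely 56 of 59 Or, 58 of 60 Gr and 57 of 60 Ir genes. The same held for 58.5% of all genes and for 86.4% of the 1372 other genes absent from the RNA table. The share varied with level, taken as the mean Pol2 signal per kb of both genotypes. Up to 125 it was 18 of 19 members and 87.3% of other genes. Between 125 and 175 these were 57 of 57 and 95.5%, and between 175 and 225 they were 43 of 44 and 92.6%. Between 225 and 300 they were 35 of 38 and 83%, and between 300 and 500 they were 13 of 14 and 68%. Over 500 they were 5 of 7 and 25%. Scaling both genotypes to a median ratio of 1 moved all genes by -0.08 on the log2 scale and left 165 members above wild type, against 50.3% of all genes. The members' median change was 0.53 on the log2(mean + 1) scale, against 0.08 over all genes, 0.55 in the other genes absent from the RNA table and 0.04 in the other genes of both tables. Like for like, the 54 members absent from the RNA table had a median of 0.69, against 0.55 in the other absent genes, and the 125 members in both tables had 0.50, against 0.04 in the other genes of both tables. The last 2 sets differ in level, with medians of 235 in the mutant and 166 in wild type per kb for those members, against 501 in the mutant and 496 in wild type for those other genes.

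The size of the Pol2 difference followed the level of the signal. Grouped by the mean Pol2 signal per kb of both genotypes, the 19 members at up to 125 had a median log2 change of 0.80, the next 57 members 0.76, then 0.53, 0.31, 0.30 and, in the 7 members over 500, 0.21. In the same 6 classes all other genes had 0.63, 0.56, 0.46, 0.28, 0.10 and -0.13. The other genes absent from the RNA table had 0.79, 0.61, 0.49, 0.28, 0.10 and -0.26. The members' median was the higher in each class; beside the other absent genes it was nearly the same in the lowest class and only slightly higher where those had 0.49 and 0.28. The class limits were chosen after seeing the values, and the difference between members and other genes was not tested.

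**Figure D3:**
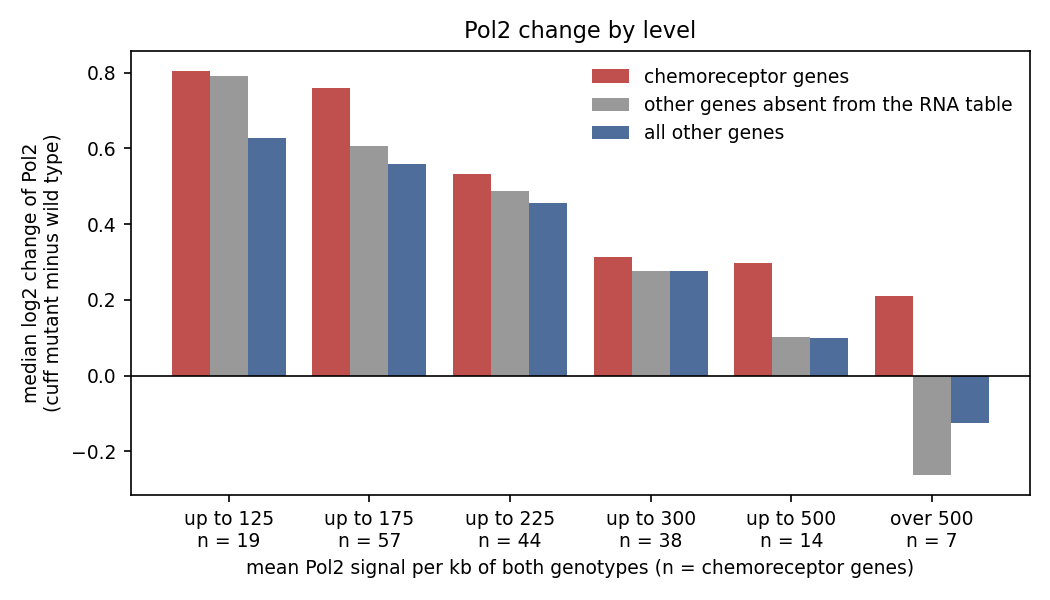
Bars are the median log2 change of Pol2 signal, cuff mutant minus wild type, in 6 classes of mean Pol2 signal per kb, for chemoreceptor genes, for other genes absent from the RNA table and for all other genes. In all 3 sets the change falls with the level, and among chemoreceptor genes it runs between 0.80 and 0.21.

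By the deposited p, 6 of 179 members (3.35%) were called in Pol2, all 6 higher in the mutant. The background was 1.46% of all genes in either direction and 0.812% in the direction of higher in the mutant. It was 1.56% among the other genes in both tables and 0.364% among the other genes absent from the RNA table (5 of 1372). Of the called members only Gr28a and Gr22c are absent from the RNA table. The other absent genes had a median Pol2 mean of 132 in wild type, against 189 in the absent members and 266 in all members. Called members were 3 Gr and 3 Ir genes. In all, 29 members (16.2%) had at least 2-fold more Pol2 in the mutant, against 4.49% of other genes, and 4 of those 29 were called. The 2-fold share was not computed at matched level. Other genes in the classes at up to 125, 175 and 225 per kb also had raised median log2 changes, of 0.63, 0.56 and 0.46.

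Among the gustatory receptors, Gr28a, of the family that serves the larval taste of RNA and its building blocks, had a Pol2 mean of 668 in the mutant and 243 in wild type, a 2.75-fold difference (p = 0.002 in the authors' deposited table). Gr2a had 799.5 in the mutant and 331 in wild type, 2.41-fold (p = 0.008 in the authors' deposited table). Gr22c had 245 in the mutant and 76.6 in wild type, 3.20-fold (p = 0.03 in the authors' deposited table). These 3 were also in the authors' own calls, which held 1.68% of members, against 0.609% of all genes. Gr28a and Gr22c are absent from the RNA table, and Gr2a had RNA of 3.8 in the mutant and 1.8 in wild type, so no call in RNA went with any of them. Gr2a overlaps futsch, the gene of a neuronal microtubule protein, whose Pol2 mean was 8888 in the mutant and 6601 in wild type (p = 0.4 in the authors' deposited table) and whose RNA mean was 433 in the mutant and 105 in wild type. Gr28b, a receptor for warmth and light that lies next to Gr28a, had 1417 in the mutant and 917 in wild type, and was not called.

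Among the ionotropic receptors, the amine receptor gene Ir41a had a Pol2 mean of 14012 in the mutant and 8051 in wild type, a 1.74-fold difference (p = 0.04 in the authors' deposited table). Ir40a, which with Ir93a senses dry air, had 3552 in the mutant and 2006 in wild type, 1.77-fold (p = 0.04 in the authors' deposited table). Both are long genes, of 104 kb and 24.9 kb in the Release 6 annotation, and they rank 1 and 2 of 179 in total signal but 170 and 168 in signal per kb, with 134 and 143 per kb in the mutant and 77.1 and 80.7 per kb in wild type. Both genes thus combine a high total signal with a low density. RNA of neither was called. Ir41a had RNA of 94.0 in the mutant and 228 in wild type, the direction opposite to its Pol2, and Ir40a had 119 in the mutant and 103 in wild type. Ir67b had a Pol2 mean of 385 in the mutant and 137 in wild type, 2.81-fold (p = 0.05 as printed in the authors' deposited table). It is not among the authors' own calls, so its p before rounding was above the threshold. With only p printed below 0.05, the count of called members in Pol2 was 5.

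The Pol2 signal of a receptor gene varied with the genes around it. In all, 51 members lie beside or overlap a protein-coding gene with at least 1000 RNA per kb in wild type, a limit chosen after seeing the values. Their median Pol2 signal per kb was 289 in the mutant and 220 in wild type, against 213 in the mutant and 134 in wild type for the 128 members with no such gene. RNA reached a mean of 10 in 24 of the 51 and in 12 of the 128, and 6 of the 51 and 48 of the 128 were absent from the RNA table. Leaving out the 45 members that overlap another gene, the medians were 269 in the mutant and 218 in wild type beside such a gene (35 members), and 209 in the mutant and 127 in wild type elsewhere (99 members). Across genes, Spearman's rho between a member's Pol2 signal per kb in wild type and the highest of its neighbours' was 0.53 over all 179 members and 0.51 over the 134 that overlap none. This is a description, since all points come from the same libraries.

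**Figure D4:**
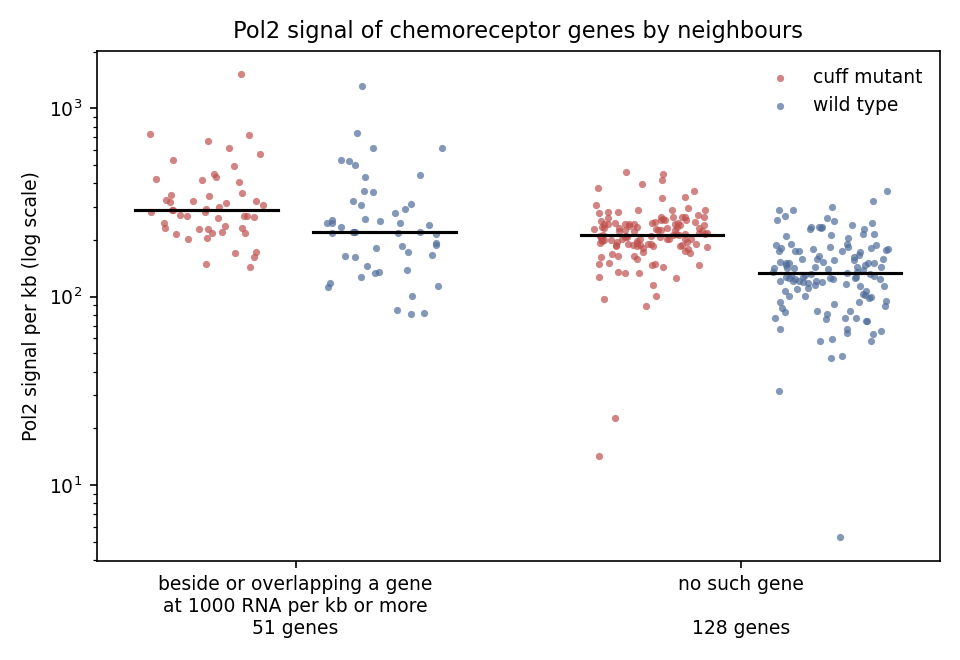
Points are the Pol2 signal per kb of chemoreceptor genes on a log axis, in cuff mutant (left) and wild-type (right) ovaries, for the 51 genes beside or overlapping a gene with at least 1000 RNA per kb and for the 128 others; bars are medians. All values above 365 in wild type belong to the first set.

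Of the 10 members with the most Pol2 signal per kb in wild type, 9 had such a neighbour. Ir7b, next to dec-1, was highest with 1523 per kb in the mutant and 1316 in wild type, and Ir7c had 569 in the mutant and 739 in wild type. Gr66a, a main receptor for bitter compounds, had 735 in the mutant and 616 in wild type, between the abundantly transcribed Sbp2 and BI-1. Gr43a, a fructose receptor, had 615 in the mutant and 528 in wild type and overlaps CG11107, and Or43b had 725 in the mutant and 498 in wild type. Gr47b, beside san, had 672 in the mutant and 616 in wild type, and Or85f, beside CG34117, had 491 in the mutant and 441 in wild type. The exception was Or7a, with 379 in the mutant and 365 in wild type. How much of a receptor gene's signal comes from fragments of its neighbour was not tested.

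Only 8 of the 179 members had less Pol2 in the mutant, and none of these was called. Lower calls were 0.652% of the whole table, so few or none would be found among 179 genes at that share. Ir31a, between LSm-4 and the very abundant Ip259, had 762 in the mutant and 1140 in wild type, Ir7c had 1396 in the mutant and 1814 in wild type, and Gr93a, which takes part in the taste of caffeine, had 278 in the mutant and 373 in wild type. Gr93c had 289.6 in the mutant and 377 in wild type. Or2a, Ir56c and Or85c lay within a few percent of wild type. Or19b had 31.2 in the mutant and 64.9 in wild type, while its near-identical copy Or19a had 19.5 in the mutant and 7.2 in wild type; how reads that fit both copies were counted was not tested, and both values are uncertain. Both had lower Pol2 means in the mutant than any other member.

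Many chemoreceptor genes arose by local duplication and stand side by side. The Release 6 order gives 15 runs of at least 3 members with no other protein-coding gene between them, with 54 members in all. The median change per run lay between 0.10 (Ir56b to Ir56d) and 1.58 (Gr36a to Gr36c) on the log2 scale, and in 12 of the 15 runs all members were higher in the mutant. Runs of other genes were not counted, and 86.4% of the other genes absent from the RNA table were likewise higher in the mutant. Pol2 means of Gr36a, Gr36b and Gr36c were 131, 190 and 149 in the mutant and 40.9, 62.7 and 107 in wild type. These are 3 different genes with 1 merged value per genotype each, and none was called. The 6 sugar receptor genes of the Gr64 run had 464 to 908 in the mutant and 223 to 494 in wild type, each gene being higher in the mutant and none called. Gr64b and Gr64c carry the same values in both genotypes, and their gene models share 1 span, so they are not separate measurements, although both are counted among the 179. Gr64d and Gr64e also overlap, with 700 and 674 in the mutant and 346 and 332 in wild type. Gr10a and Or10a overlap as well, and how far the genes of these pairs share reads was not tested. In the Gr93 run the 4 genes split, Gr93b and Gr93d being higher and Gr93a and Gr93c lower in the mutant.

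**Figure D5:**
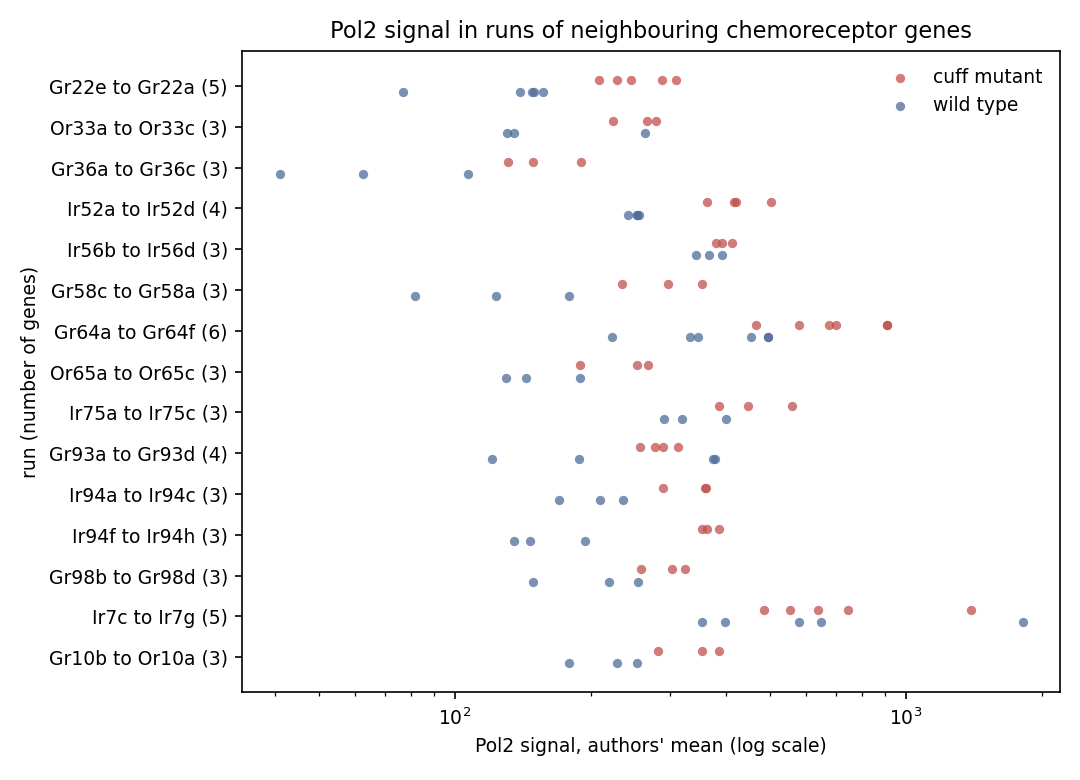
Pol2 means of each gene in the 15 runs of neighbouring chemoreceptor genes, on a log axis, with cuff mutant ovaries above wild-type ovaries in each row. In 8 of the 15 runs every mutant point lies to the right of every wild-type point (Gr22, Gr36, Ir52, Gr58, both Ir94 runs, Gr98 and Gr10b to Or10a), and in the other 7 the ranges overlap.

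By chromosome arm the members' median change was 0.71 on 2L, 0.43 on 2R, 0.62 on 3L, 0.52 on 3R and 0.45 on X. The mutant was above wild type for 30 of 31, 45 of 46, 35 of 35, 39 of 42 and 22 of 25 members on these arms, so the direction was shared by all 5 arms.

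The well known receptors given next likewise had the higher Pol2 mean in the mutant, and none of them was called. Or22a, tuned to fruit esters, had a Pol2 mean of 313 in the mutant and 112.5 in wild type, 2.78-fold, without a call. Or67d, the receptor of the male pheromone cis-vaccenyl acetate, had 209 in the mutant and 96.2 in wild type, Or42b had 307 in the mutant and 229 in wild type, and Or43a had 497 in the mutant and 364 in wild type. These differences ran in 1 direction but did not pass the test. Of the bitter receptors, Gr33a had 393 in the mutant and 183 in wild type and Gr32a had 755 in the mutant and 483 in wild type. The trehalose receptor Gr5a had 477 in the mutant and 426.5 in wild type, and Ir84a, which links food scent to courtship, had 449.7 in the mutant and 383 in wild type. All of the receptors of this paragraph were listed with RNA under 10 in both genotypes or were absent from the RNA table. That did not hold for all well known receptors. Gr66a had RNA of 43.8 in the mutant and 27.7 in wild type, and Gr43a had 20 in the mutant and 16.6 in wild type. Ir25a, Gr21a and Gr63a, given above, reached 10 in the mutant.

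Orco, the co-receptor of the odorant receptors, is not named by the rule. It had a Pol2 mean of 989.6 in the mutant and 658 in wild type (p = 0.5 in the authors' deposited table) and no entry in the RNA table. Of 77 genes for odorant-binding and accessory proteins, 0 were called in Pol2, and 55 were listed in RNA, of which 1 was called higher and 2 lower in the mutant, numbers no higher than the shares of all genes (1.46% in Pol2 and 9.24% in RNA) would give. CheB42c had an RNA mean of 6545 in the mutant and 3471 in wild type, Obp99c had 101 in the mutant and 451 in wild type, and Os-C had 190.1 in the mutant and 598 in wild type. The median Pol2 change of the 77 genes, 0.54, was close to that of the receptors, and 70 of them had more Pol2 in the mutant. So had 14 of 14 regulators of chemosensory neurons and 28 of 31 other sensory channels and receptors. Of 14 regulators of chemosensory neurons 0 were called in either table, and so short a list would hold few or no calls at these shares.

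Calls outside the receptors fell on single genes. Of 31 other sensory channels and receptors, Rh7, an opsin, had an RNA mean of 318 in the mutant and 1.5 in wild type (p = 2e-11 in the authors' deposited table) and a Pol2 mean of 2395 in the mutant and 1251 in wild type. Of 14 synaptic glutamate receptor genes, the family from which the ionotropic receptors descend, clumsy had RNA of 2013 in the mutant and 98.5 in wild type and Pol2 of 1729 in the mutant and 886 in wild type. The others of both lists were not called in either table. For Rh7 and clumsy RNA and Pol2 were both called higher in the mutant. The same held for 0.372% of the 12371 genes in both tables and for 0 of the 125 receptor genes among them, a number too small to set apart from that share.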

How the data were processed

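RNA and Pol2 values came from 2 deposited tables of protein-coding genes, each the output of DESeq (version 1.16.0 per the submitters' processing notes) with pooled dispersions taken from the parametric fit, per the file headers. The genotype values are a signal that the authors merged over libraries and printed to 1 decimal. Log2 fold changes and p-values (1 significant digit) are also as deposited by the authors; the headers do not state whether p was adjusted. The notes also name cutadapt 1.2.1, Bowtie2 2.0.0, TopHat2 2.0.8 and build dm3; the sources used here do not give the annotation or the strand of counting. Gene lengths, order and overlap came from a RefSeq table of Release 6, which held all 179 members, 12291 RNA genes and 13549 Pol2 genes. Since the notes name dm3, values per kb are approximate where the gene models used for counting differed. Gr10a and Or10a, for example, both have a Release 6 length of 3.956 kb and overlap, but their Pol2 means differ (384 and 353 in the mutant).

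Computed here (Python 3.11.15, pandas 2.3.3) were calls at p of 0.05 or less, ratios of means, log2(mean + 1) differences, values per kb and medians; the code was tested on simulated data. Depth per library and spread between replicates are unknown, and the number of libraries, 3 per genotype and assay, limits precision. The members, the lists and the rule for named genes were chosen with earlier results of these data known. Named were called members, the 10 with most RNA and most Pol2 per kb, the 5 largest rises and falls of each, and well known receptors; others were chosen after their values were seen.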

Additional observations from a re-analysis of the deposited data

How the results depend on the processing

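The RNA count of 1 called member became 0 at a p of 0.01, 0 after Benjamini-Hochberg adjustment of the deposited p over the table and 0 with only p printed below 0.05 (the last chosen after seeing the data). The Pol2 count of 6 became 2 at 0.01 and 0 after that adjustment, which is a second one if p was adjusted already. The RNA median change of 0.49 was 0.87 with a pseudocount of 0.1 and 0.14 with 10. The 36 members with RNA of at least 10 became 96 at a limit of 1 and 14 at a limit of 50. The median Pol2 signal per kb of 150 in wild type was 228 in the mutant. The other 14 summary values stayed within 1.5 times of the count or level, or 0.1 of the log2 median, and none reversed. No paired analysis was possible because each table holds 1 merged value per genotype; for the same reason leaving out libraries was not run, and neither was the use of coding lengths, for which no table was at hand. Depth per library is unknown, so the smallest difference that could have been detected in members with a mean of a few reads was not computed.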
